A study of Mus musculus with 12 samples.

Results

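Oxygen-dependent demethylases and hydroxylases were followed in mouse bone marrow-derived macrophages, which are grown from marrow cells with the growth factor M-CSF (20 ng/ml). The question of the study, from its title, is how diet-induced obesity affects the rapid response of macrophages to hypoxia. The members were picked by gene name from the deposited expression table. They are the genes with a row from the Kdm2 to Kdm7 families, Kdm8, Phf2, Phf8 and the Jmjd proteins, the TET and Alkbh families and Fto, the ribosomal oxygenases Riox1 and Riox2, Ogfod1 to Ogfod3, Asph, and the P4ha and Plod collagen hydroxylases. The Y-linked genes Kdm5d and Uty were left out by the rule. This gave 41 members among the 13232 genes of the table. Both groups described here were wild-type (WT) C57B6/J cultures that spent 1 h at 1% oxygen on day 7, after a change to serum-free medium on day 4, and differed in the diet of the donor mice. One group came from mice on a normal diet (ND) and the other from mice on a high-fat diet (HFD), with 3 libraries each. The labels list 12 libraries in 4 groups, and the 6 libraries kept at normal oxygen were not analysed here. Every value below was therefore taken under hypoxia, and none bears on the response to hypoxia itself. Age and length of feeding are not given in the sources used here. Nothing there says whether the replicates of a diet were separate mice, so p-values measure the spread between these libraries, which may be technical.

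These enzymes use molecular oxygen and α-ketoglutarate, with ferrous iron in the active site, and release succinate and carbon dioxide. JmjC-domain demethylases remove methyl groups from histone lysines, TET enzymes oxidise methylated cytosine in DNA, and AlkB enzymes take alkyl groups off nucleic acids and some proteins. The same chemistry hydroxylates proline and lysine in collagen and single residues of ribosomal and other proteins. Because oxygen is a substrate, several of them lose activity when it is scarce, KDM6A and KDM5A among the best known. Some of the genes are themselves induced by hypoxia-inducible factor (HIF), P4ha1, P4ha2, Plod2 and Kdm3a being standard examples. RNA levels, as measured here, do not report enzyme activity.

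P4ha1 and P4ha2 had the highest differences between HFD and ND of the 41 members, so the sequences around their start sites are shown, with that of Plod1, a collagen hydroxylase that lay slightly lower in HFD. Each window runs from 250 bases before to 50 bases after the RefSeq start, 5′ to 3′ on the gene's strand, on GRCm38.p6. Capitals mark ACGTG or GCGTG on either strand, the core of the HIF response element. The windows lie at chr10:59323046-59323345 (plus strand) for P4ha1, chr11:54100674-54100973 (plus strand) for P4ha2 and chr4:147936727-147937026 (minus strand) for Plod1.
P4ha1: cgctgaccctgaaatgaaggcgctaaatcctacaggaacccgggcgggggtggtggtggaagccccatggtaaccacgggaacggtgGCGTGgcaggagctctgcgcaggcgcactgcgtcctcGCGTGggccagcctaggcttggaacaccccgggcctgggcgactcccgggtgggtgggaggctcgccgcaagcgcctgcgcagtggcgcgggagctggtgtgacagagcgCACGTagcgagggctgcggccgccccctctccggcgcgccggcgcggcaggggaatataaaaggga
P4ha2: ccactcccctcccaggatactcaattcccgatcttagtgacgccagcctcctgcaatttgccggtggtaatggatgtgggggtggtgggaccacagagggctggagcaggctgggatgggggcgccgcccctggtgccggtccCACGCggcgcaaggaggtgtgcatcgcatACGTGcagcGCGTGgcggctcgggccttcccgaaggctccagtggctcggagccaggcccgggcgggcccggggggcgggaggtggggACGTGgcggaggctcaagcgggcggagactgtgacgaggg
Plod1: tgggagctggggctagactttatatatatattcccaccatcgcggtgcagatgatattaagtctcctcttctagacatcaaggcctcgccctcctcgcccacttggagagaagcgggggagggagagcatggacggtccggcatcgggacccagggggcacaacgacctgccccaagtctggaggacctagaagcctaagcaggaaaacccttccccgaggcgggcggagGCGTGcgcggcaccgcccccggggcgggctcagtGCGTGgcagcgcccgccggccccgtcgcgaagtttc

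ACGTG occurred 1 time in the P4ha1 window, 2 times in that of P4ha2 and 0 times in that of Plod1. GCGTG occurred 2 times in each of the 3 windows. These 3 windows were picked by gene and do not stand for all members. ACGTG was also in windows of members lower in HFD, 4 times in 1 window of Kdm4c and 3 times in that of Kdm6a. Among members higher in HFD it occurred 2 times for Riox2 and 0 times for Jmjd8 and Alkbh3. Such matches are common: 61.9% of the 11494 windows of genes in the table held at least one of the motifs, and 61.9% of the 42 windows of members did. Taken singly, ACGTG was in 33.3% of the members' windows and 25.7% of those of genes in the table, and GCGTG in 57.1% and 50.3%. A window was at hand for 33 members, and these shares were not tested against each other. A match is a string of letters and not a measured binding site.

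No member passed an adjusted p of 0.05 between the diets (0 of 41, limma with Benjamini-Hochberg adjustment over all 13232 genes, where 0% of genes passed). At an unadjusted p under 0.05 there were 4 members, or 9.76%, beside 1401 genes or 10.6% of all. P4ha1, P4ha2 and Jmjd8 were higher in HFD, where 5.4% of all genes were, and Kdm2b was lower, where 5.18% were. The count was 2 (4.88%) without ND replicate 1, beside 5.29% of all genes, and 2 (4.88%) without HFD replicate 2, beside 5.49%. All 3 HFD values lay above or below all 3 ND values for 8 members (19.5%), beside 14.5% of all genes. HFD lay above ND for P4ha1, P4ha2, Jmjd8 and Alkbh3, where 7.44% of all genes did so, and below ND for Kdm2b, Jmjd4, Fto and Plod1, where 7.07% of all genes did so. With a library left out, the count of members apart can only stay or rise. It was 17 without ND replicate 3 and 15 without HFD replicate 1, where 35.9% and 30.5% of all genes did not overlap. These shares lie near or little above the background and are given as descriptions of single genes. With limma array weights, which let the libraries count unequally, P4ha1, P4ha2 and Kdm2b passed, 7.32% of the members beside 8.56% of all genes.

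The differences were small in size. The median log2 difference (HFD minus ND, on log2(value + 1), which understates changes of low genes) was -0.033 over the 41 members and -0.0034 over all genes. In absolute size it was 0.067 for the members and 0.092 for all genes, and 29 members differed by less than 0.1. The 95% interval of the difference stayed within a 1.25-fold change either way for 27 members and within a 1.5-fold change for 39. Kdm8 and P4ha2 had wider intervals, from -0.90 to 0.57 and from 0.18 to 0.95. For most members a diet difference of 1.5-fold in RNA level was thus outside the interval. The spread between libraries of a diet had a median SD of 0.086 on the log2 scale for the members and 0.12 for all genes. The plot of differences by gene shows this narrow band around 0.

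**Figure D1:**
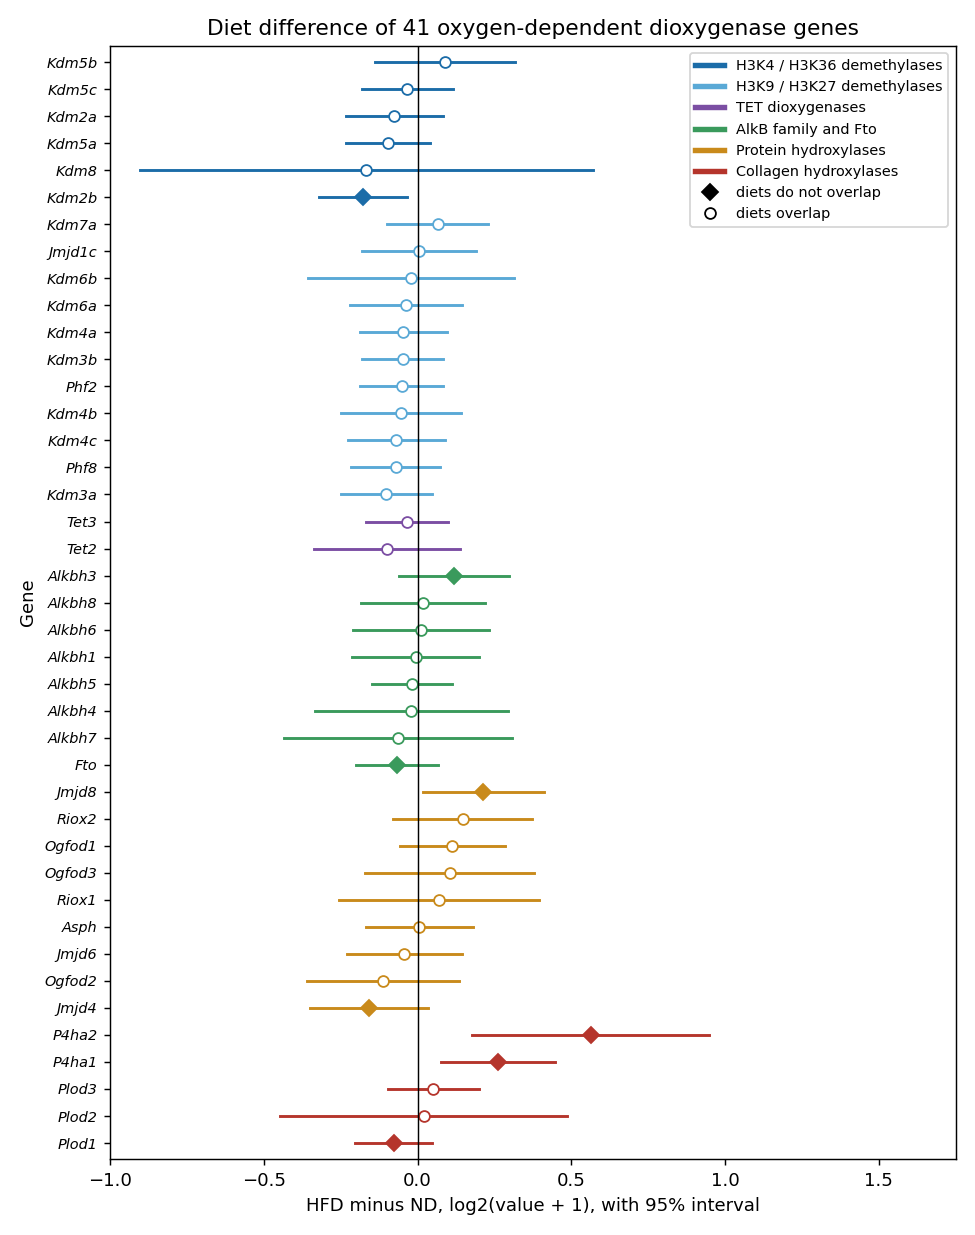
Each row is a member, placed by the log2 difference HFD minus ND with its 95% interval from limma (3 libraries per diet), and coloured by role. Filled diamonds mark the 8 members whose diets did not overlap. P4ha2 (0.56) and P4ha1 (0.26) lie farthest to the right, and Kdm2b (-0.18) and Kdm8 (-0.17) farthest to the left.

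Among the collagen hydroxylases, both prolyl hydroxylase subunits had higher values in HFD, whereas the lysyl hydroxylases differed little. P4ha1 encodes the main catalytic subunit of collagen prolyl 4-hydroxylase, which stabilises the collagen triple helix (chromosome 10, 59323296 to 59373304, plus strand, mm10). The ND libraries, listed here and below in the order of their replicate numbers, had normalized values of 1657, 1705 and 1960, and the HFD libraries 1979, 2100 and 2290. The groups did not overlap, but ND replicate 3 lay just under HFD replicate 1. The HFD mean was 19.7% above the ND mean (2123 ± 157 against 1774 ± 163, SD, n = 3 each), with a log2 difference of 0.26 (SE 0.083, limma adjusted p 0.321).

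P4ha2 encodes the alternative catalytic subunit of the same enzyme (chromosome 11, 54100095 to 54131665, plus strand). It was scarce, at 61.9, 86.0 and 93.3 in ND and 118, 118 and 116 in HFD, equal to between 62.0 and 128 estimated reads per library. The 3 HFD values were nearly identical, while the ND values spread, replicate 1 being the lowest. The HFD mean was 1.46-fold the ND mean, a log2 difference of 0.56 (SE 0.17, limma adjusted p 0.318). Without ND replicate 1 the difference was 0.39, and without ND replicate 3 it was 0.68. With array weights it was 0.71 (limma adjusted p 0.022), and P4ha1 reached 0.30 (0.0202). Across the alternatives run, limma gave P4ha2 an adjusted p between 0.022 and 0.882 and P4ha1 one between 0.0202 and 0.932.

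Plod1, a lysyl hydroxylase whose product is used to cross-link collagen, was among the steadiest members in ND. It measured 3241, 3237 and 3220 in ND and 3081, 3149 and 2959 in HFD. All HFD values were lower, a difference of -5.25% on the means, with a log2 difference of -0.078 (SE 0.056, limma adjusted p 0.667). Plod2, which hydroxylates the collagen telopeptides, was near the bottom of the range at 54.7, 58.5 and 46.1 in ND and 43.0, 62.6 and 57.0 in HFD. Its diets overlapped fully (log2 difference 0.020, limma adjusted p 0.983), and counting error alone was 13.6% of the value. Plod3, which also transfers glucose onto collagen, differed by 0.051 on the log2 scale with overlapping values. P4ha3 was not analysed here.

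Stromal transcripts were read in the same libraries. Of 10 stromal markers 3 had a row, Col1a1, Col1a2 and Col3a1, none at 0. Their summed value was 178 to 549 in ND and 51.8 to 337 in HFD. All 3 had lower means in HFD, with overlapping diets. Their log2 differences were -1.33 for Col1a1, -1.04 for Col1a2 and -1.45 for Col3a1. Col1a1 alone had an unadjusted p under 0.05 (limma 0.042, adjusted p 0.448), or 33.3% beside 10.6% of all genes. The part of stromal cells in the P4ha1 and P4ha2 differences was not tested. Fewer cells of a type and less RNA per cell cannot be told apart in bulk samples.

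**Figure D2:**
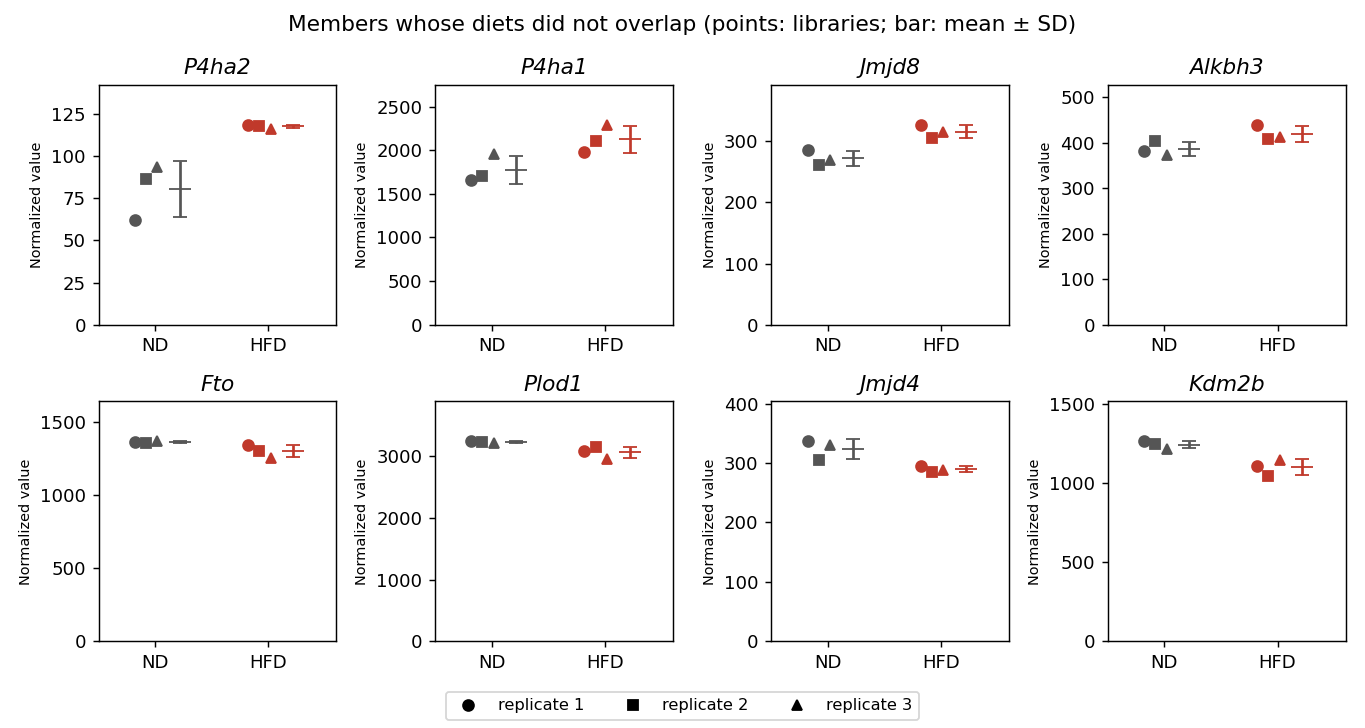
Normalized values of the 8 members whose diets did not overlap, 1 panel per gene, with each library as a point and the mean ± SD (n = 3) beside it, and each vertical axis starting at 0. The P4ha2 panel shows the widest separation, from at most 93.3 in ND to at least 116 in HFD, whereas Fto and Plod1 differ by about 5% of their level.

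The 17 genes classed here as histone lysine demethylases leaned slightly to lower values in HFD. Their difference was below 0 for 14 and above 0 for 3, with a median of -0.052, and 51.1% of all genes were below 0. None passed the adjusted threshold, 1 of 17 had an unadjusted p under 0.05 (10.6% of all genes), and the diets were apart for 1 (14.5% of all genes). The lean was present under each scaling, 15 of 17 being lower after scaling to the column total, where 55.1% of all genes were lower, and 15 after quantile normalization, where 50.5% were. It was 12 of 17 without ND replicate 2 or without HFD replicate 3, and 16 without ND replicate 3. Many of these genes are long: among the 1107 genes with at least 10 kb of exon, 55.7% were lower in HFD (median -0.017), and the part of length in the lean was not tested. Opposite-strand exons cover 24.6% of Kdm3b, one of the 14, whose level is uncertain where counting ignored strand.

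Among the demethylases of H3K4 and H3K36, marks of active promoters and gene bodies, Kdm2b showed the clearest separation. Kdm2b removes methyl groups from H3K36 and recruits Polycomb complexes to CpG islands through its zinc finger. It was at 1262, 1245 and 1217 in ND and 1108, 1045 and 1145 in HFD. Every HFD library was lower, a difference of -11.5% on the means, with a log2 difference of -0.18 (SE 0.064, limma adjusted p 0.380). The adjusted p was 0.0322 with array weights and ran from there to 0.934 over all settings run.

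Kdm5a, an H3K4 demethylase, was at 2418, 2487 and 2339 in ND and 2378, 2215 and 2188 in HFD. HFD replicates 2 and 3 lay under all ND values and HFD replicate 1 among them (log2 difference -0.096, limma adjusted p 0.633). Kdm2a, the paralogue of Kdm2b, measured 4109, 4228 and 4065 in ND and 4279, 3882 and 3635 in HFD. HFD replicate 1 was the highest of all libraries and HFD replicate 3 the lowest, so the diets overlapped (-0.075, limma adjusted p 0.751). X-linked Kdm5c, whose product also acts on H3K4, was at 2264, 2113 and 2227 in ND and 2241, 2208 and 2010 in HFD, with HFD replicate 3 the lowest (-0.033). Kdm5b differed by 0.088 and Kdm8, at a mean of 35.3, by -0.17, both with overlapping values. Kdm8 ranged from 21.5 in HFD replicate 1 to 51.9 in ND replicate 1. Its SD between libraries was 0.47 on the log2 scale, and counting error was 16.7% of the value.

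**Figure D3:**
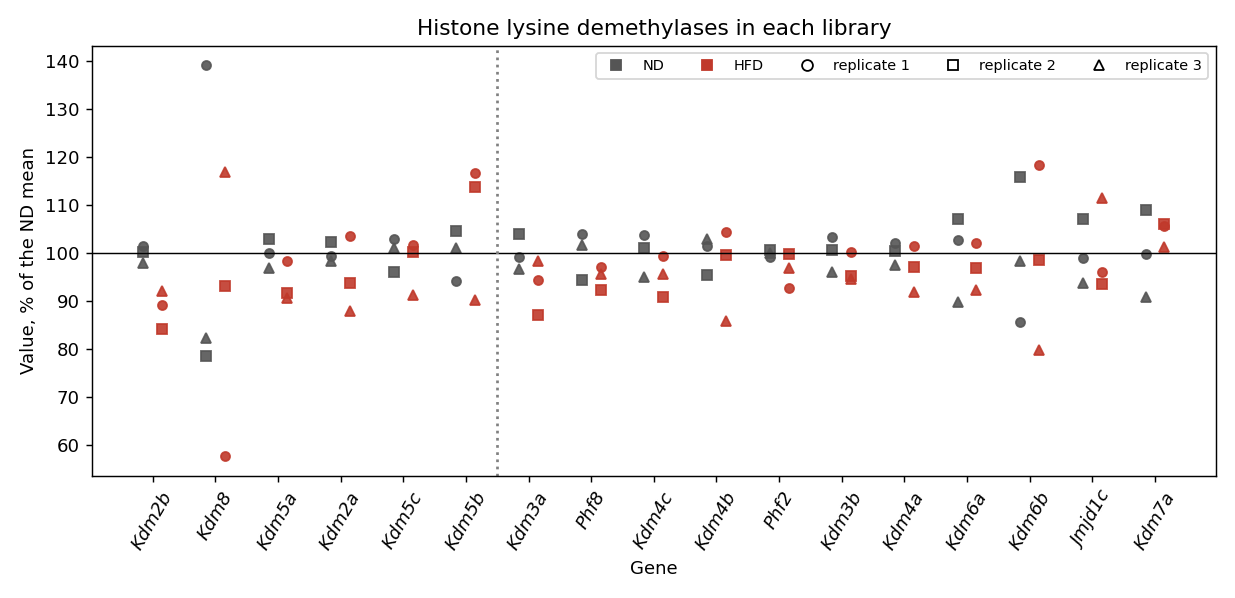
Value of each of the 17 genes classed here as histone demethylases in each library as a percentage of that gene's ND mean (grey ND, red HFD, symbols for replicates). The genes left of the dotted line were classed under H3K4 and H3K36, and those to its right under H3K9 and H3K27. A gene may act on further marks, as Kdm4c does on H3K36. Kdm2b is the 1 gene with all red points below all grey points, and Kdm8 and Kdm6b scatter the most.

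The 11 demethylases of H3K9 and H3K27, marks of silent chromatin, overlapped between the diets without exception. Kdm3a, which demethylates H3K9 and is a known HIF target, was at 2323, 2434 and 2261 in ND and 2208, 2038 and 2301 in HFD. HFD replicate 3 lay between the ND values (log2 difference -0.10, limma adjusted p 0.644), and the sign was opposite to that of the HIF targets P4ha1 and P4ha2. Kdm4b, another HIF target acting on H3K9, was at 713, 671 and 724 in ND and 733, 700 and 603 in HFD, which held both the highest and the lowest library (-0.054). Kdm4c (H3K9 and H3K36) was at 900, 875 and 824 in ND and 862, 787 and 828 in HFD (-0.069), with HFD replicate 2 below all ND values. Phf8, an X-linked H3K9 and H4K20 demethylase, was at 1518, 1378 and 1484 in ND and 1418, 1348 and 1398 in HFD (-0.072).

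Of the H3K27 demethylases, Kdm6a, the X-linked enzyme known to sense oxygen directly, was at 1087, 1132 and 951 in ND and 1079, 1025 and 976 in HFD. The HFD range lay inside that of ND (-0.039). Kdm6b, the inducible H3K27 demethylase of stimulated macrophages, measured 428, 579 and 491 in ND and 591, 493 and 399 in HFD. Its highest and its lowest library were both HFD. Its SD between libraries was 0.25 on the log2 scale, where counting error was 4.48% of the value, and the difference of -0.022 (95% interval -0.36 to 0.31) changed sign with the library left out. Jmjd1c was the most abundant histone demethylase by total value, at 7219, 7804 and 6828 in ND and 7005, 6813 and 8129 in HFD, both extremes again being HFD libraries (0.0041). The other members of the group, Kdm3b, Kdm4a, Kdm7a and Phf2, differed by -0.052 to 0.065. Kdm4d was not analysed here.

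Of the TET dioxygenases, which start the removal of DNA methylation, Tet3 was the most abundant member of all by total value. Tet3 measured 9220, 9362 and 9854 in ND and 9459, 9164 and 9125 in HFD, with a log2 difference of -0.035 and overlapping diets. Tet2, which restrains inflammatory genes in macrophages, was at 2873, 2892 and 2213 in ND and 2510, 2270 and 2630 in HFD. ND replicates 1 and 2 lay above all HFD libraries, while ND replicate 3 lay below them. The difference was -0.098 (SE 0.11, limma adjusted p 0.791) with all libraries and -0.23 without ND replicate 3 (0.169), and over all settings run the adjusted p ran from 0.0863 to 0.988. ND replicate 3 also stood nearer to the HFD libraries than to its own group on a first principal component. The component was taken over genes with a mean of at least 100 and held 43.35% of the variance. On it ND replicate 3 was at 3.43, the other ND libraries at -14.0 and -13.5 and the HFD libraries at 1.33 to 11.4. Tet1 was not analysed here.

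The AlkB enzymes and Fto differed little between the diets. Alkbh3, which repairs alkylated bases in DNA and RNA, was at 383, 404 and 373 in ND and 439, 407 and 412 in HFD. The groups were apart, but the gap between ND replicate 2 and HFD replicate 2 was narrow (log2 difference 0.12, SE 0.080, limma adjusted p 0.654). Fto, which demethylates methyladenosine in RNA, was at 1364, 1354 and 1365 in ND and 1342, 1302 and 1255 in HFD. Fto was thus lower in every HFD library, a difference of -4.51% on the means (-0.067, SE 0.060, limma adjusted p 0.738).

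Alkbh5, the other m6A eraser, was the most abundant AlkB gene. Its values were 4162, 4025 and 4162 in ND and 4186, 4118 and 3893 in HFD, and the 95% interval of its difference was -0.15 to 0.11. Alkbh7, a mitochondrial protein, was scarce at 84.8, 71.4 and 66.1 in ND and 76.4, 66.6 and 69.0 in HFD, with all HFD values inside the ND range (-0.063). Alkbh1, Alkbh4, Alkbh6 and Alkbh8 differed by at most 0.020 in either direction, with overlapping diets. Alkbh2 was not analysed here.

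Of the 9 protein hydroxylases and related JmjC proteins, 6 had a higher and 3 a lower difference in HFD. Jmjd8, a JmjC-domain protein of the endoplasmic reticulum, was at 285, 261 and 270 in ND and 327, 305 and 315 in HFD. All HFD values were higher, by 16.05% on the means (log2 difference 0.21, SE 0.087, limma adjusted p 0.429). In the GENCODE M21 annotation 39.3% of its exon bases are also covered by exons on the opposite strand, mainly those of Stub1. The library kit keeps strand, but whether the counting used it is not given in the sources used here, so the level is uncertain. Jmjd4, which hydroxylates a translation termination factor, had the opposite sign, with 336, 304 and 330 in ND and 295, 285 and 289 in HFD. The groups were apart (-0.16, SE 0.086, limma adjusted p 0.570).

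Ogfod1, a prolyl hydroxylase of a small-subunit ribosomal protein, was at 588, 556 and 631 in ND and 640, 662 and 616 in HFD. HFD replicate 3 lay within the ND range and the other HFD libraries above it (0.11, limma adjusted p 0.653). Riox1, a histidyl hydroxylase of a ribosomal protein, was at 274, 262 and 391 in ND and 301, 335 and 323 in HFD. ND replicate 3 was the highest of the 6 libraries, and without it the difference was 0.25 in place of 0.070. Asph, which hydroxylates aspartate and asparagine in EGF-like domains, was at 7297, 7239 and 7898 in ND and 6923, 7365 and 8280 in HFD. HFD held both the lowest and the highest library (0.0057, 95% interval -0.17 to 0.18). Riox2 (0.15), Ogfod3 (0.10), Jmjd6 (-0.043) and Ogfod2 (-0.11) overlapped between the diets. Opposite-strand exons also cover 31.9% of Riox1, 22.4% of Riox2, 17.0% of Ogfod3 and 14.7% of Asph. Jmjd7 was not analysed here.

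Levels can be set side by side only per length. Dividing each mean over the 6 libraries by the annotated exon length put the members between 9.95 and 683 per kb, where the median gene was at 124. The RNA demethylase Alkbh5 (683), Tet3 (561), P4ha1 (474), Asph (466) and Plod1 (465) came first. Plod2 (9.95), Kdm8 (14.8) and P4ha2 (15.9) came last. P4ha1 was thus far above P4ha2, the alternative catalytic subunit. Among histone demethylases Jmjd1c (410) and Kdm7a (378) led, ahead of Kdm5c (306) and Kdm4a (290), while Kdm6b stood at 71.4 and Kdm5b at 55.5. Kdm3a (275) exceeded Kdm4c (145) and Kdm4b (141), and Tet3 exceeded Tet2 (152). Exon length includes every annotated isoform, so a gene with many unused exons is placed too low.

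**Figure D4:**
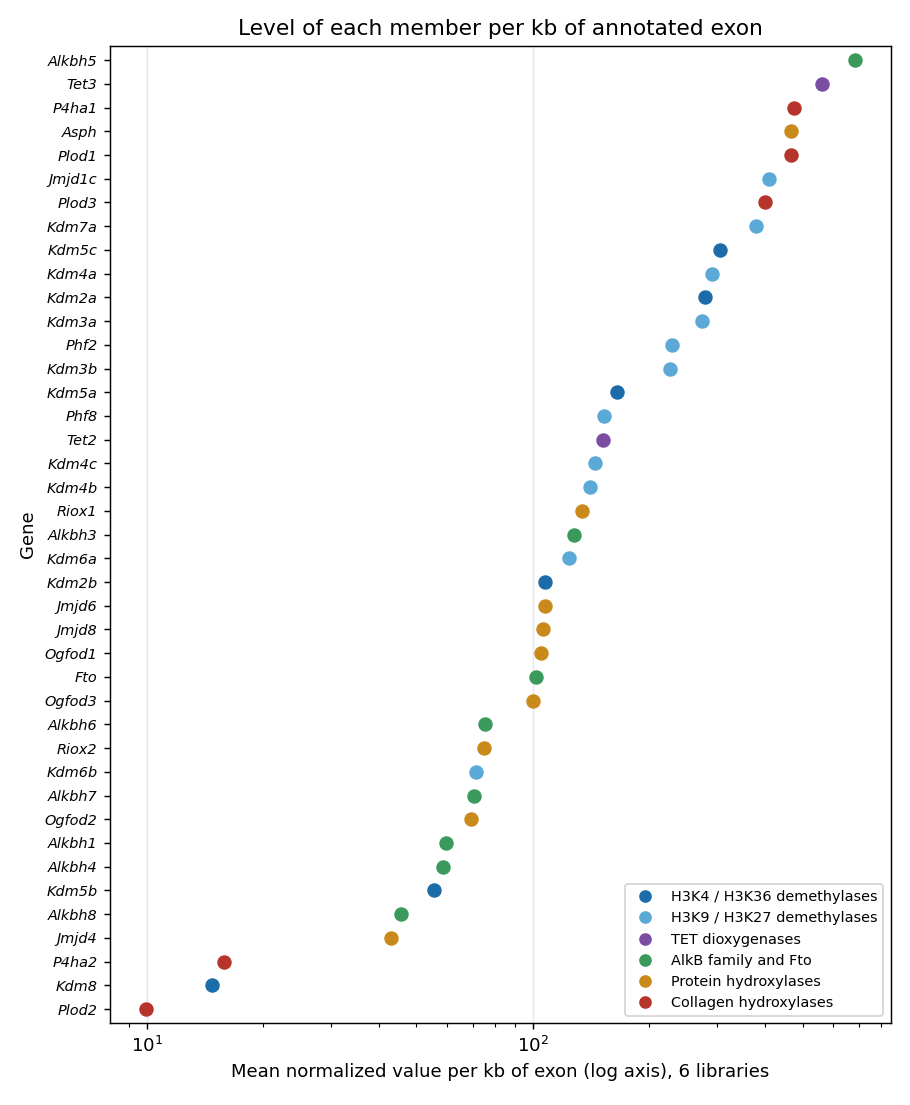
Mean normalized value over the 6 libraries divided by the annotated exon length in kb, on a log axis, for each of the 41 members, coloured by role. The members span from 9.95 (Plod2) to 683 (Alkbh5), and the collagen hydroxylases lie at both ends, with P4ha1 at 474 and P4ha2 at 15.9.

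Genes that work with or against the members were read in the same fit, and none passed the adjusted threshold. The HIF hydroxylases, the oxygen sensors that use the same chemistry, had 4 of 5 genes in the table, with 0 at an unadjusted p under 0.05 (10.6% of all genes). Egln3, itself a HIF target, was at 82.8, 70.4 and 98.02 in ND and 91.0, 115 and 107 in HFD (log2 difference 0.32, limma adjusted p 0.552). HFD replicates 2 and 3 lay above all ND libraries. Egln1, the main HIF prolyl hydroxylase, was at 1043, 1030 and 1003 in ND and 1017, 1200 and 1161 in HFD (0.13, limma adjusted p 0.594). The flavin-dependent demethylases, which remove histone methyl groups by another chemistry, overlapped fully. Kdm1a was at 894, 829 and 801 in ND and 846, 820 and 843 in HFD (-0.0073). Kdm1b was at 362, 432 and 417 in ND and 394, 416 and 415 in HFD (0.021).

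Of 23 genes that make or use α-ketoglutarate, succinate or fumarate, 4 had an unadjusted p under 0.05 (17.4%, beside 10.6% of all genes). These lay 2 in each direction. Diets were apart for 3 of the 23 (13.0%, beside 14.5% of all genes). Fh1, the fumarase that removes fumarate, an inhibitor of these enzymes, was at 1033, 972 and 911 in ND and 817, 821 and 816 in HFD. All HFD libraries were lower and close together (-0.25, SE 0.070, limma adjusted p 0.286, and 0.018 to 0.882 over all settings run). Idh1, the cytosolic source of α-ketoglutarate, was higher in every HFD library, at 5567, 5866 and 5348 in ND and 6390, 6518 and 6067 in HFD (0.18, SE 0.062, limma adjusted p 0.366). The mitochondrial citrate carrier Slc25a1 (-0.18) and the transaminase Got2 (0.18), named after their values were seen, were the remaining genes with an unadjusted p under 0.05.

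The 23 genes listed as histone methyltransferases and related proteins leaned the same way as the demethylases. Of these, 18 were lower and 5 higher in HFD (median -0.062), where 51.1% of all genes were lower. Eed and Suz12, listed with them, are partner subunits, and Kmt2e is there by family name. At an unadjusted p under 0.05 there were 0 (10.6% of all genes). The number lower was 15 of 23 without ND replicate 2, and 20 after scaling to the column total, where 55.1% of all genes were lower. The median was -0.0325 without HFD replicate 2. Suv39h2, which methylates H3K9, was at 364, 426 and 249 in ND and 298, 228 and 322 in HFD (-0.27, limma adjusted p 0.663, and -0.49 without ND replicate 3). Kmt2c, an H3K4 methyltransferase, was at 4948, 5039 and 4342 in ND and 4483, 4308 and 4466 in HFD (-0.11, limma adjusted p 0.631). In both genes ND replicates 1 and 2 lay above all HFD libraries and ND replicate 3 among them. Suv39h1, named after its values were seen, was the 1 gene of these 23 with diets apart (0.091), or 4.35% beside 14.5% of all genes. Among 13 genes of DNA and RNA methyltransferases and their partner proteins, 0 had an unadjusted p under 0.05 (10.6% of all genes). Mettl3, the catalytic m6A writer, was at 251, 271 and 240 in ND and 288, 277 and 273 in HFD (0.14, limma adjusted p 0.652). Zc3h13, another subunit of the writer complex, was at 1048, 1023 and 1083 in ND and 1010, 1017 and 993 in HFD (-0.062, limma adjusted p 0.773). The diets were apart for both, in opposite directions, and for Wtap, named after its values were seen (0.055). These were 3 of the 13 genes (23.1%, beside 14.5% of all genes).

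Of the collagen partners 9 of 13 were in the table, and 2 had an unadjusted p under 0.05 (10.6% of all genes). The lysyl oxidase family gene Loxl3 was at 256, 269 and 383 in ND and 377, 424 and 393 in HFD (0.42, limma adjusted p 0.361), so ND replicate 3 lay within HFD. Without ND replicate 3 the difference was 0.60 (0.0216), and over all settings run the adjusted p ran from 0.0135 to 0.934. Loxl2 was scarce and lower in HFD, at 34.6, 58.1 and 17.6 in ND and 14.0, 17.3 and 16.1 in HFD (-1.02, limma adjusted p 0.428, and -0.62 without ND replicate 2). The diets were apart, but ND replicate 3 lay only just above HFD replicate 2. P4hb, the partner subunit of P4ha1 and P4ha2 in the hydroxylase, differed by -0.029.

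Of 9 genes for iron and ascorbate supply, on which the enzymes depend, 8 were in the table, 7 of them higher in HFD (6470 of all 13232 genes were) and 2 at an unadjusted p under 0.05 (10.6% of all genes). The transferrin receptor Tfrc was at 2932, 4015 and 3921 in ND and 5177, 4902 and 4041 in HFD. Each HFD library was higher, though HFD replicate 3 only just exceeded ND replicate 2 (0.38, SE 0.13, limma adjusted p 0.354). The iron importer Slc11a2 was at 1195, 1225 and 1392 in ND and 1518, 1519 and 1410 in HFD (0.22, SE 0.075, limma adjusted p 0.354). Ferritin light chain, Ftl1, named after its values were seen, was also apart between the diets (0.19, limma adjusted p 0.551). Diets were thus apart for 3 of the 8 genes (37.5%, beside 14.5% of all genes).

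Every HFD library was deeper than every ND library, at about 23017000 to 24491500 against 19046400 to 22805200 estimated reads, and the part of depth in these results was not tested. All 9 macrophage markers were in the table, with summed values of 353000 to 401900 in ND and 350100 to 410600 in HFD. Lyz2, at a mean of 243400, made up most of these sums. Taken singly, 4 markers were higher and 5 lower in HFD, and the diets were apart for 2 (22.2%, beside 14.5% of all genes). These were Adgre1, which was higher (0.16, limma adjusted p 0.520), and Cd14, which was lower (-0.29, unadjusted p 0.0044, limma adjusted p 0.281). Of 10 neutrophil markers 6 had a row, summing to 1712 to 2455 in ND and 2109 to 3430 in HFD. All 6 had a higher mean in HFD (median log2 difference 0.30), and the diets were apart for Mmp8 alone (0.90, unadjusted p 2.7e-05, limma adjusted p 0.113). The T cell marker Cd4, the 1 of 6 with a row, was lower (-0.70, unadjusted p 0.042, limma adjusted p 0.448). All 6 proliferation markers were lower in HFD on average, with sums of 9003 to 9977 in ND and 7655 to 10850 in HFD. At an unadjusted p under 0.05 there were 2 of the 6 (33.3%, beside 10.6% of all genes). These were Birc5, with diets apart (-0.28, unadjusted p 0.0148, limma adjusted p 0.3535), and Ccnb1, with overlapping diets (-0.31, unadjusted p 0.033, limma adjusted p 0.423). None of these markers with a row was at 0, and the part of these cells in the results was not tested. Of the libraries, HFD replicate 3 was the lowest of the 6 for 14 of the 41 members, beside 20.9% of all genes. ND replicate 1 and HFD replicate 1 were each the highest for 12 members, beside 17.7% and 11.8% of all genes.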

How the data were processed

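RNA from macrophages under hypoxia was measured with stranded, ribosomal RNA-depleted libraries (100 ng of total RNA, single reads of 75 bases, per the labels' protocols). Per the submitters' processing notes STAR, Partek and mm10 were used. The counter, annotation, filter and normalization are not given in the sources used here. The deposited values are a signal, read from the values as estimated read counts divided by a size factor per library. Only 57.1% to 58.4% of a library's values from 5 to 1000 came out as whole reads (within 0.02), too few for a count test. Columns named NC were read as ND, since the labels give no further diet.

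All 13232 genes were fitted as log2(value + 1) with limma 3.58.1 in R 4.3.3 (mean-variance trend, two-sided, 3 HFD against 3 ND libraries), with Benjamini-Hochberg adjustment over all genes and a threshold of 0.05. The procedure was tested on simulated libraries of equal spread, a setting that does not cover libraries of unequal spread. The members, role classes and lists were chosen with earlier results of these data known. Values for single libraries were given, by rule, for the 3 members of each role class with the smallest p, the most abundant member and 17 further members fixed by name, and for the 2 genes of each partner list with the smallest p. Exon lengths and overlaps came from GENCODE M21 (all 41 members matched, and 98% of all genes), and start-site windows from RefSeq on GRCm38.p6. The labels tie the replicate numbers to no mouse or day, so whether they pair the libraries is not known. The main fit treated the libraries as unpaired. B cell, erythroid, dendritic and mast cell markers had no row to read, and of the T cell markers Cd4 alone did. Alternatives were other pseudocounts, a minimum mean, other scalings, no trend, array weights, a replicate block and leaving out each library.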

Additional observations from a re-analysis of the deposited data

How the results depend on the processing

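Depth limits the scarce members most: counting error was 16.7% of the value for Kdm8, 13.6% for Plod2, 11.7% for Alkbh7 and 10.0% for P4ha2, and these 4 have no value under a minimum mean of 100. The 41 members gave 570 values over 14 alternatives. Of these 529 had the sign and call of the reported value, 3 passed the threshold where the reported one did not, and 38 had the opposite sign. The sign held for 25 members in every alternative. Of 264 values of 19 partner genes, 254 had the same sign and call, 7 newly passed and 3 reversed.

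Array weights, which ranged from 0.441 (ND replicate 3) to 3.09 (HFD replicate 2), gave 1133 genes past an adjusted p of 0.05 in place of 0, 3 members in place of 0, and 9 members in place of 4 at an unadjusted p under 0.05 (22% of members, beside 27.6% of all genes). The cause was not tested. The replicate block gave 31 genes past the threshold, 0 of them members, and changed no member's call at that threshold. Deviations from the diet means correlated at -0.0086, -0.037 and -0.00069 between libraries with equal replicate numbers. Leaving out 1 library gave 0 to 233 genes past the threshold (233 without ND replicate 3). At an unadjusted p under 0.05 there were 2 to 5 members, beside 5.29% to 17.5% of all genes. The count was 2 (4.88%) without ND replicate 1 or without HFD replicate 2, beside 5.29% and 5.49% of all genes. It was 5 (12.2%) without ND replicate 3, beside 17.5%. Diets were apart for 10 to 17 members in place of 8 (17 without ND replicate 3, 15 without HFD replicate 1). In those fits 35.9% and 30.5% of all genes were apart, and 18.8% to 25% when any one of the other 4 libraries was left out. Leaving out a library cannot make separated diets overlap, so these counts could only stay or rise. Why they rose most without ND replicate 3 was not tested. No member passed the adjusted threshold in these fits. The members' median stayed between -0.051 and -0.011.

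Scaling to the column total shifts the difference of every gene by nearly the same amount, and the median of all genes went from -0.0034 to -0.016. That shift reversed Alkbh6 (0.012 to -0.00043), Asph (0.0057 to -0.0066) and Jmjd1c (0.0041 to -0.0083). Quantile normalization reversed Alkbh4 (0.0011), Asph (-0.039) and Jmjd1c (-0.039). Array weights reversed Alkbh8 (-0.051), Jmjd1c (-0.064) and Kdm6b (0.064). The cause of the reversals under quantile normalization and array weights was not tested.

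Leaving out 1 library took these genes across 0, with the range in parentheses: Alkbh1 (-0.071 to 0.050), Alkbh4 (-0.11 to 0.080), Alkbh5 (-0.040 to 0.013), Alkbh6 (-0.046 to 0.047), Alkbh7 (-0.14 to 0.037), Alkbh8 (-0.038 to 0.086), Asph (-0.065 to 0.064), Jmjd1c (-0.074 to 0.055), Kdm4b (-0.11 to 0.028), Kdm5c (-0.063 to 0.016), Kdm6a (-0.11 to 0.013), Kdm6b (-0.16 to 0.12), Kdm7a (-0.00085 to 0.13), Kdm8 (-0.38 to 0.11), Plod2 (-0.091 to 0.17), Riox1 (-0.037 to 0.25), Kdm1a (-0.042 to 0.037) and Kdm1b (-0.056 to 0.071).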

Other observations

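The Y-linked demethylase genes that the name rule leaves out had values in every library. Kdm5d, a homologue of Kdm5c, was at 947, 1016 and 873 in ND and 905, 845 and 794 in HFD, with overlapping diets (log2 difference -0.16, limma adjusted p 0.552). Uty, a homologue of Kdm6a, was at 1157, 1214 and 1099 in ND and 1024, 960 and 1042 in HFD. All HFD values of Uty were lower (-0.20, SE 0.069, unadjusted p 0.0168, limma adjusted p 0.361). Both were added to the reading after other values had been seen.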
